A study of Mus musculus with 8 samples.

Results

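The genes described form the front end of Toll-like receptor signalling in mouse cells: the co-receptor gene Cd14, the receptor genes Tlr2, Tlr3 and Tlr4, the adaptor genes Myd88 and Ticam1, and the kinase genes Irak1 and Irak4. These 8 genes were taken by symbol from the 30731 genes present in both gene tables of the series, and all 8 were found in each table. The series asked how TCF-1, the HMG-box factor encoded by Tcf7, reshapes genome folding in T cells, and it holds 8 RNA-seq libraries in 4 groups, each of 2 libraries. The fibroblast line NIH-3T3 was measured as "Tcf7 induced" (treatment "TCF1 induced") and as "wild type" (treatment "untreated"). Scid.adh, a mouse T-lineage lymphoma line that resembles thymocytes of the DN3 stage, was measured as "Tcf7-/-" (treatment "TCF1 KO") and as "wild type" with an empty vector. Per the file headers, the names of the alignment files behind all 4 of the 3T3 libraries hold 72 hours, Cas9, empty, LRG21, pIND21 and P33, so the induced and the normal cells share these. Doxycycline stands in the names of the induced libraries alone, and its effect cannot be told apart from that of TCF-1. The labels do not say whether the knockout is 1 clone or whether replicate libraries were grown as separate cultures. The p-values therefore cover the spread between these libraries alone, and that spread may be technical.

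Toll-like receptors bind microbial molecules and carry a TIR domain inside the cell that recruits adaptors. TLR2 senses lipoproteins at the cell surface, TLR4 senses lipopolysaccharide that CD14 hands to it together with the small protein MD-2, and TLR3 senses double-stranded RNA in endosomes. MyD88 serves TLR2, TLR4 and the receptors of the interleukin-1 family and gathers the kinases IRAK4 and IRAK1, which lead through TRAF6 to NF-kB and MAP kinases. TRIF, encoded by Ticam1, is the adaptor of TLR3 and of internalised TLR4 and also leads to interferon genes. Fibroblasts are known to answer lipopolysaccharide through this route, while cells of the T lineage use MyD88 mainly behind interleukin-1 family receptors.

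Total counts over genes were between 13850213 and 17523677 in the 3T3 libraries and between 7740198 and 10392402 in the Scid.adh libraries. Tcf7 itself averaged 959 ± 18.1 CPM in induced 3T3 cells and 14.6 ± 0.139 CPM in normal ones, and 635 ± 15.5 CPM in knockout and 1322 ± 4.47 CPM in empty-vector Scid.adh cells (SD, n = 2 each). Counts per gene do not show whether the Tcf7 transcripts left in the knockout encode protein. Markers of fibroblasts summed to 25211 and 25129 CPM in induced and 28704 and 28044 CPM in normal 3T3 libraries. The sums hide a split, since of these 10 markers 4 rose, 4 fell and 2 did not pass. Over all genes tested 18.5% rose and 18.3% fell. Markers of DN3 thymocytes summed to 3262 and 3422 CPM in knockout and 5148 and 5012 CPM in empty-vector Scid.adh libraries. In bulk samples such as these, fewer cells of a type and less RNA per cell cannot be told apart. CPM stands for the count divided by the TMM-scaled library size, on the usual CPM scale. A gene was called at an adjusted p under 0.05 in edgeR's quasi-likelihood test over all genes tested.

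In the fibroblasts all 8 genes had enough reads to be tested, and 7 of the 8 rose with TCF-1 induction, where 18.5% of the 18185 genes tested rose and 36.8% passed in either direction. The rises differed in size between the genes. The cell-surface and endosomal sensors Tlr2, Cd14 and Tlr3 rose by between 1.99-fold and 2.95-fold, the adaptor Myd88 by 1.52-fold, and Tlr4 and the kinases by between 1.16-fold and 1.28-fold. Ticam1 did not pass, and 0 of the 8 fell, against 18.3% of all genes tested. DESeq2 gave the same counts of 7 and 0, and Ticam1 had an unadjusted p of 0.119 in edgeR. The median log2 fold change over the 8 genes was 0.48, beside a median of 0.0004 over all genes tested. The 8 genes were chosen with earlier results of these data known, so these counts and medians are no independent test.

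**Figure D1:**
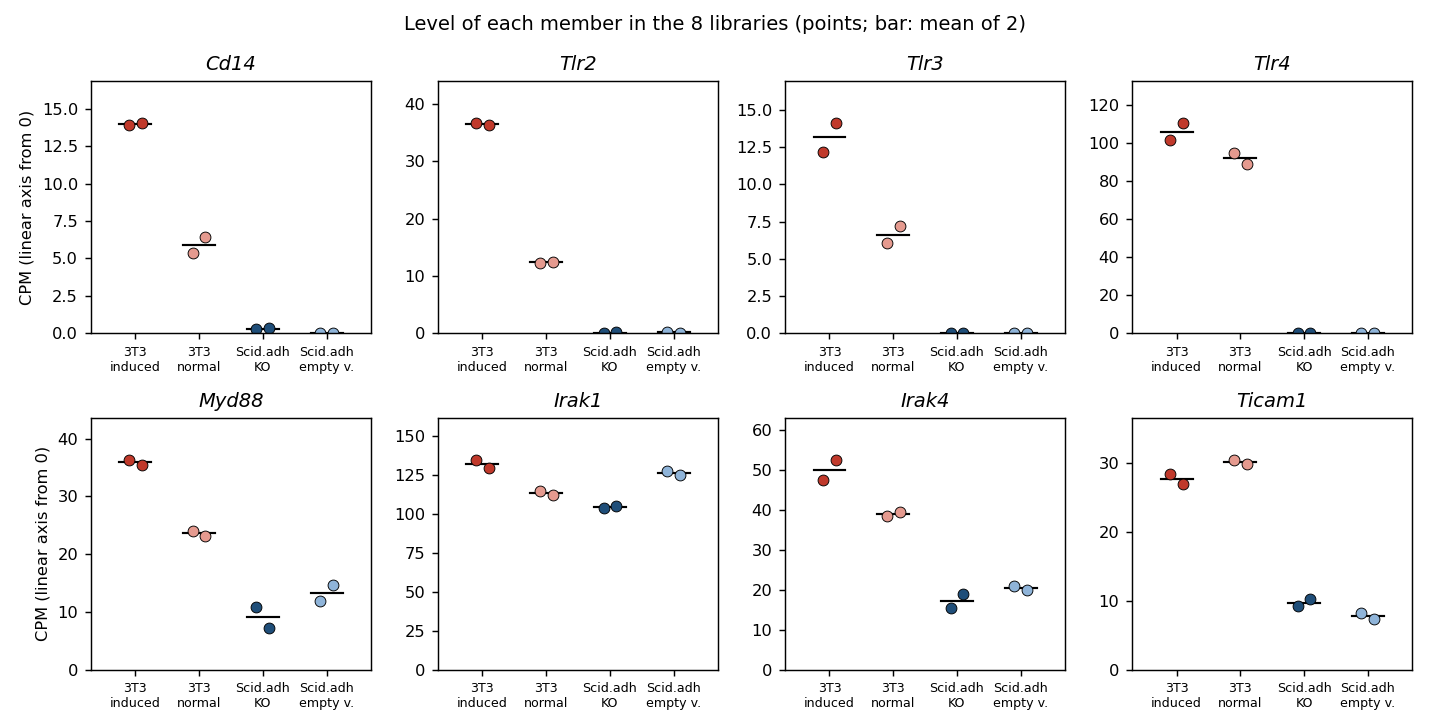
CPM of each of the 8 genes (vertical axis, linear from 0, with its own range per panel) in the 8 libraries, as points by group from left to right: induced 3T3, normal 3T3, knockout Scid.adh, empty-vector Scid.adh; bars are means of 2 libraries. Tlr2 stands at 36.7 and 36.3 CPM in induced 3T3 libraries against 12.3 and 12.4 CPM in normal ones, and Cd14, Tlr2, Tlr3 and Tlr4 lie at or near 0 in all 4 Scid.adh libraries.

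Among the sensors of bacterial products, Tlr2 (ENSMUSG00000027995, chromosome 3, 83836272 to 83841767 of GRCm38, minus strand) changed most. It was read at 36.7 and 36.3 CPM in the induced 3T3 libraries, against 12.3 and 12.4 CPM in the normal ones. The groups were far apart and the libraries within each nearly equal. This is a 2.95-fold rise (log2 fold change 1.56, SE 0.09, edgeR adjusted p = 8.46e-20), and it stayed between 1.54 and 1.57 over 12 alternative settings. Cd14 (ENSMUSG00000051439, chromosome 18, 36725067 to 36726798, minus strand), whose product passes lipopolysaccharide to TLR4 and lipoproteins to TLR2, stood at 14.0 and 14.1 CPM in induced libraries, against 5.38 and 6.43 CPM in normal ones. Both induced libraries lay above both normal ones, a 2.37-fold rise (log2 fold change 1.24, SE 0.13, edgeR adjusted p = 2.94e-11). Tlr4 (ENSMUSG00000039005, chromosome 4, 66827584 to 66930284, plus strand), the lipopolysaccharide receptor, was at 101 and 110.3 CPM in induced libraries, against 94.7 and 88.6 CPM in normal ones. The groups did not overlap, but the gap between them was smaller than that between the 2 induced libraries. Its 1.16-fold rise (log2 fold change 0.21, SE 0.05, edgeR adjusted p = 0.00105) was not called without normal library 2 (log2 fold change 0.16).

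Tlr3 (ENSMUSG00000031639, chromosome 8, 45395665 to 45411080, minus strand), the sensor of double-stranded RNA, had 12.2 and 14.1 CPM in induced 3T3 libraries, against 6.07 and 7.18 CPM in normal ones. The induced libraries were both higher, by 1.99-fold on average (log2 fold change 0.98, SE 0.13, edgeR adjusted p = 1.88e-08). The antisense gene Gm45542 overlaps 7.32% of the exon length of Tlr3 and had 8 counts in the induced and 14 in the normal libraries. Cd14, Tlr2 and Tlr3 were the 3 members that also exceeded a change of 1.5-fold in the test against that size.

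The adaptors of the receptors parted. Myd88 (ENSMUSG00000032508, chromosome 9, 119335934 to 119341411, minus strand) was at 36.3 and 35.5 CPM in induced 3T3 libraries, against 24.0 and 23.2 CPM in normal ones. These groups lay well apart, a 1.52-fold rise (log2 fold change 0.61, SE 0.08, edgeR adjusted p = 5.88e-09). Ticam1 (ENSMUSG00000047123, chromosome 17, 56269319 to 56276786, minus strand) was read at 28.5 and 26.9 CPM in induced libraries, against 30.5 and 29.9 CPM in normal ones. The induced libraries were the lower ones here, but the difference did not pass (log2 fold change -0.12, SE 0.08, 95% interval -0.28 to 0.03, edgeR adjusted p = 0.227). The 2 kinases of the MyD88 complex rose slightly. Irak4 (ENSMUSG00000059883, chromosome 15, 94543643 to 94581815, plus strand), which is activated first in that complex, had 47.5 and 52.6 CPM in induced libraries, against 38.6 and 39.4 CPM in normal ones. No library of a group reached the other group, and the rise was 1.28-fold (log2 fold change 0.36, SE 0.07, edgeR adjusted p = 1.9e-05). Irak1 (ENSMUSG00000031392, chromosome X, 74013914 to 74023918, minus strand), its partner kinase, had 134.5 and 129 CPM in induced libraries, against 114 and 112 CPM in normal ones. This 1.17-fold rise was again free of overlap between the groups (log2 fold change 0.22, SE 0.05, edgeR adjusted p = 9.2e-05).

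How the counting treated strand is not given in the sources used here, so reads of overlapping genes on the other strand may be counted in these values. Acaa1a overlaps 11.3% of the exon length of Myd88 on the opposite strand and rose by 0.37 on the log2 scale in induced 3T3 cells. Twf1 overlaps 7.87% of that of Irak4, also on the opposite strand, and rose by 0.14. Their part in the changes of Myd88 and Irak4 was not tested. In GENCODE M21, Cd14, Tlr2, Tlr4 and Ticam1 share exon bases with no other gene.

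**Figure D2:**
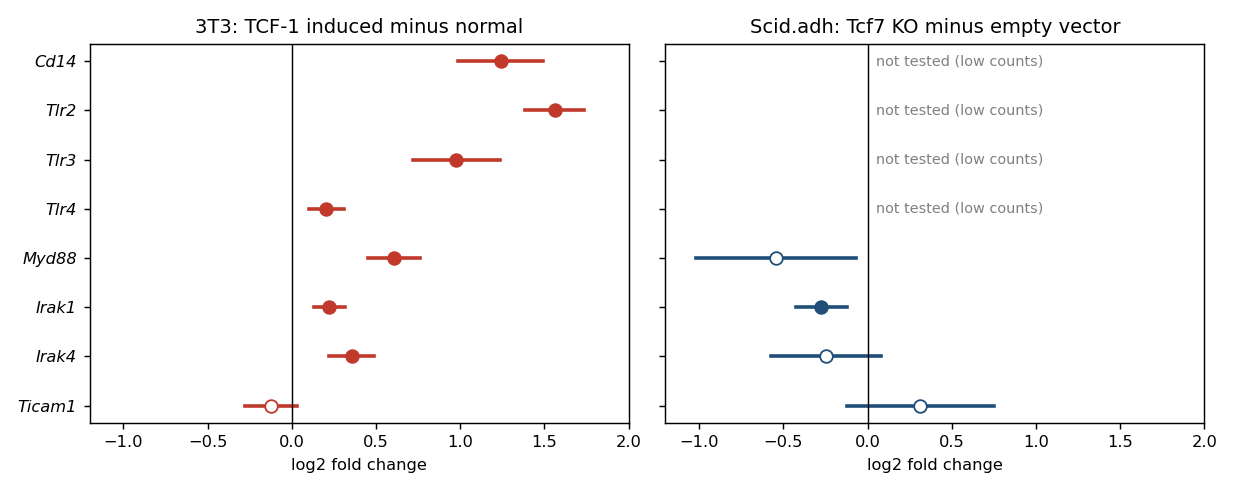
Log2 fold change of each gene (horizontal axis) with its 95% interval, for induced minus normal 3T3 cells on the left and knockout minus empty-vector Scid.adh cells on the right; filled points passed at an adjusted p under 0.05 and open points did not. All filled points on the left lie above 0, from 0.21 for Tlr4 to 1.56 for Tlr2, and the filled point on the right is Irak1 at -0.28.

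Promoter sequences are shown for 3 of the genes that rose in the fibroblasts, because Tlr2, Tlr3 and Myd88 are the sensors and the adaptor with the largest changes for which the RefSeq table (GRCm38.p6) holds an entry. That table matched 6 of the 8 members, all but Cd14 and Tlr4. Each run holds 250 bases before and 50 after the RefSeq transcription start, 5′ to 3′ on the gene's own minus strand, and capitals mark matches to a motif. The windows are chr3:83841559-83841858 for Tlr2, chr8:45410331-45410630 for Tlr3 and chr9:119339969-119340268 for Myd88.
Tlr2: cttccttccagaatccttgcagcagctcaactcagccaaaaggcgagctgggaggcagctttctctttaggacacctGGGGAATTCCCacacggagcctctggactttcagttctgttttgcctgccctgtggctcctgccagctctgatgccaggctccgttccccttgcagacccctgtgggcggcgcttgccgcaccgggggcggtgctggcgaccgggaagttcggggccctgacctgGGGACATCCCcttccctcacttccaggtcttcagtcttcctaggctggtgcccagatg
Tlr3: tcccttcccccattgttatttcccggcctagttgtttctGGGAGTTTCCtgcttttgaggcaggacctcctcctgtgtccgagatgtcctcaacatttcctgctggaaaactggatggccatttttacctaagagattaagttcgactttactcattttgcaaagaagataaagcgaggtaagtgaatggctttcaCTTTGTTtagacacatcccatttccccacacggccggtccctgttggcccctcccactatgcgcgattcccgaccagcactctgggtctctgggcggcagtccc
Myd88: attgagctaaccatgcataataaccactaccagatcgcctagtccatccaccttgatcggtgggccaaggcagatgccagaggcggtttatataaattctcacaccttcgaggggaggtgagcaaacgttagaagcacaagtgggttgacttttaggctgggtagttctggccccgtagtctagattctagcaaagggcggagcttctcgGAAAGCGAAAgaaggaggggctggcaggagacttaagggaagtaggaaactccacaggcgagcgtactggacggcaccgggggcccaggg
The motifs searched on both strands were the NF-kB consensus, the interferon-stimulated response element (ISRE), and any of the TCF/LEF words, namely CTTTGAA and also CTTTGAT and also CTTTGTA and also CTTTGTT. In the Tlr2 window the capitals mark NF-kB matches from -173 to -163 (a pair that overlaps) and from -8 to 1, counted from the RefSeq start as 0. In the Tlr3 window they mark an NF-kB match from -211 to -202 and a TCF/LEF word from -54 to -48. In the Myd88 window they mark a response element from -40 to -31. Of 32851 promoter windows of the same length, 8.46% held the NF-kB consensus, 3.44% the response element and 16.9% a TCF/LEF word. The Irak1 window held an NF-kB match and the word CTTTGTA, while Irak4 and Ticam1 had none of these letters in theirs. A match is a description of the letters and shows no binding.

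In Scid.adh cells the adaptors and kinases were read, and the sensors among the 8 genes were at or near 0. Cd14, Tlr2, Tlr3 and Tlr4 were under the filter on low counts in both groups, and Myd88, Irak1, Irak4 and Ticam1 were tested. Of these 4, Irak1 fell in the knockout and 0 rose, while 15.9% of the 11941 genes tested fell, 15.6% rose and 31.5% passed in either direction. The other 3 did not pass; their unadjusted p-values in edgeR were 0.028 for Myd88, 0.128 for Irak4 and 0.146 for Ticam1, and DESeq2 also called 1 member lower and 0 higher. Of 9 tested markers of DN3 thymocytes 7 fell in the knockout, and their part in the changes of these genes was not tested.

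Tlr3 had 0 counts in all 4 Scid.adh libraries, which allows a level of up to 0.388 and 0.365 CPM in the knockout and 0.289 and 0.305 CPM in the empty-vector libraries (3 counts of each total, for counting error only). Tlr2 had 0 and 1 counts in the knockout libraries and 2 and 0 in the empty-vector ones. Tlr4 had 1 and 2 counts in the knockout libraries and 0 in both empty-vector libraries. Such numbers hold no detectable difference at this depth. Cd14 had 2 and 3 counts in the knockout libraries and 0 in both empty-vector ones. Its knockout levels (0.243 and 0.356 CPM) were at or under what 3 counts allow in a library, and no fold is given. Cd14 did not pass without a filter on low counts and passed in the fit of all 8 libraries, on these same 5 counts. In that fit its 3T3 counts took it past the filter, so the call gives no support for a change in Scid.adh. Cd14 is also a macrophage gene, and macrophage markers summed without the pan-leukocyte gene Ptprc to between 14.7 and 16.1 CPM in knockout and between 15.8 and 19.3 CPM in empty-vector libraries. With Ptprc the sums were between 1119 and 1137 CPM in knockout and between 921 and 930 CPM in empty-vector libraries. These sums also hide a split. Of the 10 macrophage markers 5 were tested, and Ptprc and Itgam rose, Fcer1g fell and 2 did not pass. Over all genes tested 15.6% rose and 15.9% fell. Itgam shares 68.7% of its exon length with the gene model Gm49368 on the same strand.

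Irak1 in Scid.adh cells was read at 103 and 105 CPM in knockout libraries, against 127 and 125 CPM in empty-vector ones. Both knockout libraries were below both empty-vector libraries, at 0.826 of their mean (log2 fold change -0.28, SE 0.07, edgeR adjusted p = 0.00978). The call was lost without empty-vector library 1 (log2 fold change -0.27) or empty-vector library 2 (-0.30). Myd88 had 10.9 and 7.24 CPM in knockout libraries, against 11.9 and 14.6 CPM in empty-vector ones. The knockout libraries were the lower ones but also differed widely from each other, and the change did not pass (log2 fold change -0.54, SE 0.22, 95% interval -1.02 to -0.07, edgeR adjusted p = 0.0768). It passed without knockout library 1 (log2 fold change -0.88), without empty-vector library 1 (-0.70) and in the fit of all 8 libraries (-0.57). Knockout library 2, the one with the lower Myd88 level, also had 25.8% of its reads on no counted feature. The other 3 libraries had between 21.3% and 22.3% of such reads. The part of this in the result was not tested.

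Irak4 was at 15.6 and 19.0 CPM in knockout libraries, against 21.1 and 20.0 CPM in empty-vector ones. This difference did not pass, with a log2 fold change of -0.25 and a 95% interval from -0.57 to 0.08 (edgeR adjusted p = 0.237). Ticam1 had 9.24 and 10.2 CPM in knockout libraries, against 8.26 and 7.37 CPM in empty-vector ones. It was the member with a positive estimate, at a log2 fold change of 0.31 with a 95% interval from -0.13 to 0.75 (edgeR adjusted p = 0.262). Acaa1a and Twf1, which overlap Myd88 and Irak4, did not pass in Scid.adh cells (log2 fold changes -0.11 and -0.24).

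The effect of induction in 3T3 cells was set against that of the knockout in Scid.adh cells for the 4 genes with reads in both lines. This difference, the first log2 fold change minus the second, passed above 0 for 3 of the 4, where 14.6% of the 15854 genes tested did so, 16.1% passed below 0 and 30.7% passed on either side. It was 1.15 for Myd88 (SE 0.20, edgeR adjusted p = 3.26e-05), 0.50 for Irak1 (SE 0.08, adjusted p = 1.86e-05) and 0.61 for Irak4 (SE 0.15, adjusted p = 0.00246). The first contrast is a gain of TCF-1 and the second a knockout of Tcf7, so opposite changes in them add up here. A value above 0 therefore does not show that the lines respond differently to TCF-1. Induction and knockout changes were 0.61 and -0.54 for Myd88, 0.22 and -0.28 for Irak1, and 0.36 and -0.25 for Irak4. In the knockout Irak1 alone passed. For Ticam1 the difference did not pass, at -0.43 (SE 0.19, 95% interval -0.83 to -0.04, adjusted p = 0.0908). The receptors and Cd14 give no such difference that can be read, since they had between 0 and 5 counts over the 4 Scid.adh libraries.

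Levels were also set in order per kilobase of exon, so that genes of different length can be compared. In induced 3T3 cells the order by mean CPM per kilobase was Irak1 (28.0), Tlr4 (19.1), Myd88 (13.9), Tlr2 (12.1), Irak4 (9.97), Ticam1 (9.25), Cd14 (8.09) and Tlr3 (2.53). Irak4 and Ticam1 were the neighbours in this order whose libraries overlapped. In normal cells the order was Irak1 (24.0), Tlr4 (16.5), Ticam1 (10.1), Myd88 (9.16), Irak4 (7.77), Tlr2 (4.10), Cd14 (3.41) and Tlr3 (1.27), and no neighbours overlapped. Tlr2 thus stood above Irak4 and Ticam1 in induced cells and below both in normal ones. In knockout Scid.adh cells Irak1 had 22.1 CPM per kilobase, and Myd88 (3.53), Irak4 (3.44) and Ticam1 (3.25) overlapped with one another. In empty-vector cells Irak1 had 26.7, Myd88 5.15, Irak4 4.09 and Ticam1 2.61 CPM per kilobase, with no overlap. Since the 3T3 and Scid.adh tables hold different sets of genes, these levels are side by side without a test.

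**Figure D3:**
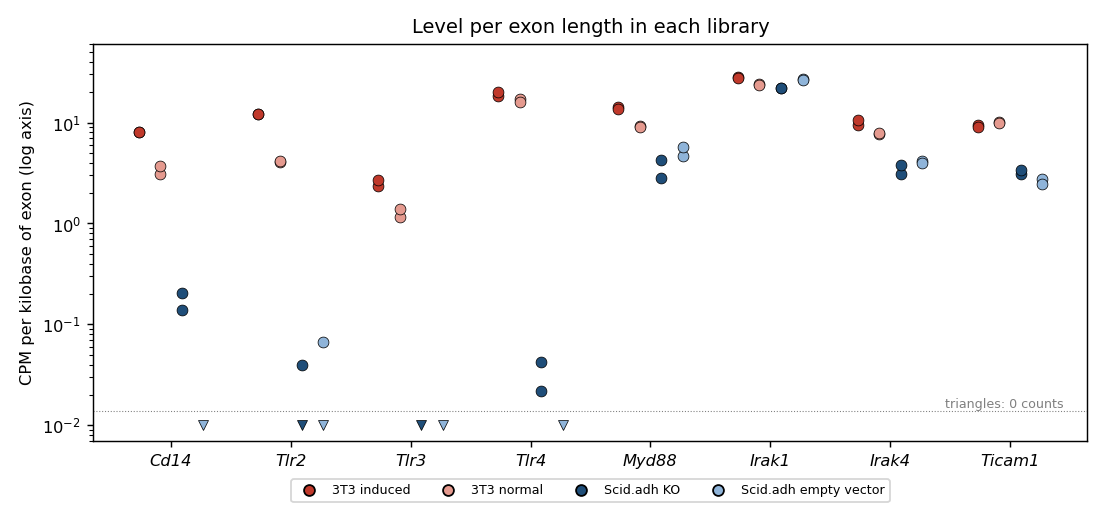
Level of each gene per kilobase of exon (vertical axis, logarithmic, CPM per kilobase) in each library, by group from left to right within a gene: induced 3T3, normal 3T3, knockout Scid.adh and empty-vector Scid.adh; triangles stand for libraries with 0 counts. Irak1 lies between 21.9 and 28.5 in all 8 libraries, and Tlr3 is at 0 in every Scid.adh library.

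Other genes of the pathway were counted in the fibroblasts by lists, each to be read against the 18.5% of all genes tested that rose and the 18.3% that fell. Of 9 other Toll-like receptor genes, Tlr1 and Tlr6, which pair with TLR2, had enough reads to be tested. Tlr6 rose, at 4.45 ± 1.05 CPM in induced and 2.93 ± 0.162 CPM in normal cells (SD, n = 2; log2 fold change 0.58, edgeR adjusted p = 0.0215). Tlr6 did not pass in DESeq2, in the fit of all 8 libraries, and without induced library 2 (log2 fold change 0.34), normal library 1 (0.53) or normal library 2 (0.64). Tlr1 did not pass (2.22 ± 0.224 CPM in induced and 2.04 ± 0.0381 CPM in normal cells). Of 10 genes that handle ligands or transport the receptors 7 were tested, and Lbp and Hmgb1 rose while Cd36 and Hsp90b1 fell. Lbp, whose product delivers lipopolysaccharide to CD14, averaged 30.5 ± 0.973 CPM in induced and 0.806 ± 0.0785 CPM in normal cells (log2 fold change 5.23). Hmgb1, a nuclear protein that acts as a ligand once released, rose by 0.31 on the log2 scale. Hsp90b1, a chaperone that folds many but not all of these receptors, fell by 0.15. Ly96, the gene of MD-2, did not pass, with 6.95 ± 0.576 CPM in induced and 7.83 ± 0.629 CPM in normal cells. Cd36, Tlr1 and Ly96 were named after their values were seen.

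Of 24 further adaptors, kinases and ubiquitin ligases 22 were tested in 3T3, and 8 rose and 4 fell, with a median log2 fold change of 0.08; over all genes tested 18.5% rose and 18.3% fell. Peli2, a ubiquitin ligase of IRAK proteins, rose by 0.68, Irak2, another kinase of that family, by 0.55, and Sarm1, a TIR-domain enzyme, by 0.51. Traf6, the ubiquitin ligase next after the IRAK kinases, fell to 47.5 ± 4.01 CPM in induced cells, against 88.4 ± 2.59 CPM in normal cells (log2 fold change -0.90, edgeR adjusted p = 1.64e-17). Chuk, a subunit of the kinase that frees NF-kB, fell by 0.32 on the log2 scale, and Map3k7, the kinase TAK1, by 0.15. Sarm1 was lost without normal library 2 (0.40) and in DESeq2, and Map3k7 without normal library 1 or normal library 2 (both -0.15) and in DESeq2. Of 12 brakes on the pathway 11 were tested, of which 6 rose and 3 fell, with a median of 0.21, beside the same 18.5% and 18.3% over all genes. Zc3h12a, an RNase that degrades Il6 transcripts, rose by 0.96, Irak3, a pseudokinase that blocks IRAK signalling, by 0.88, and Tank by 0.34. Dusp1, a phosphatase of MAP kinases, fell by 0.80 on the log2 scale, the inhibitor gene Tollip by 0.25 and the deubiquitinase gene Otud7b by 0.14. Otud7b did not pass without normal library 1 (-0.15) or normal library 2 (-0.13), nor in DESeq2.

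Of 6 receptors of the interleukin-1 family that share MyD88, 5 were tested in 3T3, and Il1rap rose while Il1rl1, Il18rap and Il1r1 fell. Il1rap, the shared accessory chain, averaged 181 ± 10.6 CPM in induced and 86.7 ± 1.03 CPM in normal cells (log2 fold change 1.06). Il1rl1, the receptor of interleukin-33, averaged 192 ± 2.23 CPM in induced and 536.5 ± 2.13 CPM in normal cells (-1.48). Il18rap fell by 1.23 and Il1r1, the receptor of interleukin-1 itself, by 0.23 on the log2 scale. Of 24 genes that this pathway is known to switch on, 18 were tested in 3T3, and 11 rose and 3 fell, with a median log2 fold change of 0.91. Over all genes tested 18.5% rose and 18.3% fell, with a median of 0.0004. The largest of these rises were those of Lcn2 (6.28), the cytokine gene Il6 (3.93; 27.2 ± 2.95 CPM in induced and 1.77 ± 0.234 CPM in normal cells) and the acute-phase gene Saa3 (3.60). Ptgs2, the prostaglandin enzyme COX-2, fell by 1.37, the chemokine gene Ccl5 by 0.62 and the cytokine gene Lif by 0.53 on the log2 scale. Ccl5 did not pass without induced library 1 (-0.41) or in DESeq2. The list was chosen with earlier results of these data known, and its Lcn2 was among the genes already seen to rise. Macrophage markers summed to 16.9 and 16.5 CPM in induced and 15.8 and 16.1 CPM in normal 3T3 libraries; Adgre1 (F4/80) had 0 counts in all 4, and Cd68 was the marker that rose, by 0.51.

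**Figure D4:**
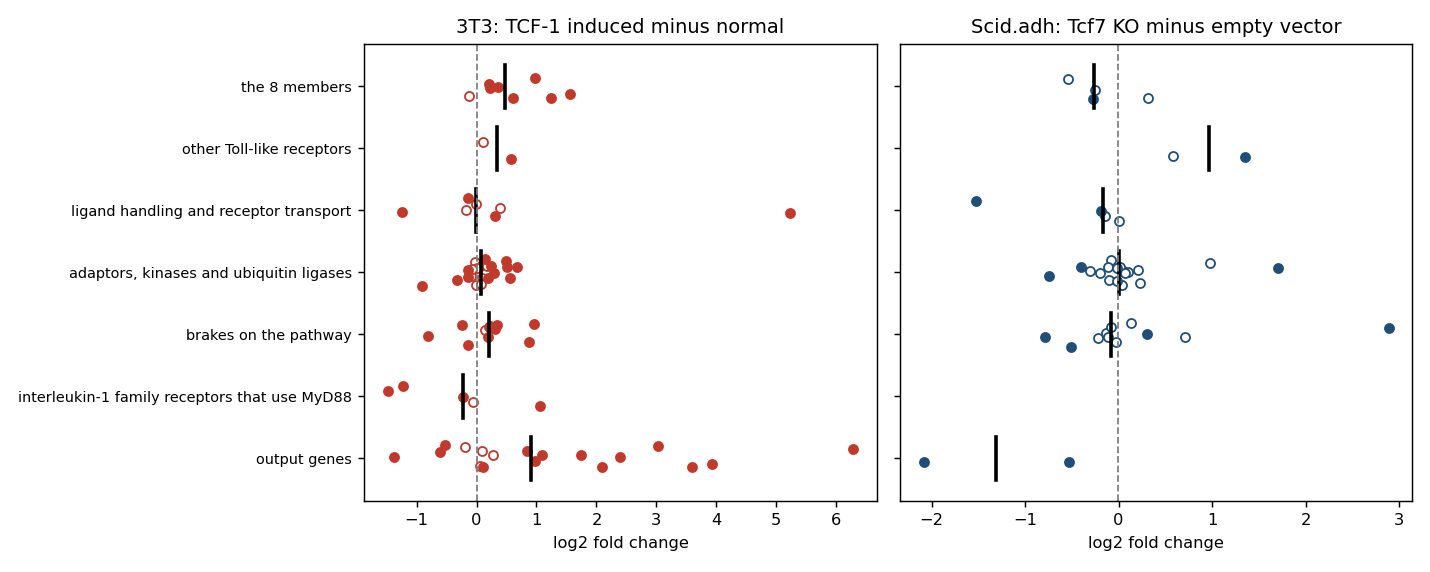
Log2 fold change (horizontal axis) of every tested gene of the 7 lists, one list per line, for induced minus normal 3T3 cells on the left and knockout minus empty-vector Scid.adh cells on the right; filled points passed at an adjusted p under 0.05, black bars are list medians and the dashed line is the median of all genes tested. The output genes in 3T3 have a median of 0.91, and their counterpart in Scid.adh holds 2 tested genes.

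The same lists in Scid.adh cells are to be read against the 15.6% of all genes tested that rose and the 15.9% that fell. Of these lists, the other Toll-like receptors again had 2 tested genes. Tlr1 rose in the knockout, to 7.57 ± 0.300 CPM against 2.95 ± 0.246 CPM in empty-vector cells (SD, n = 2; log2 fold change 1.35, SE 0.26, edgeR adjusted p = 0.00222). The related receptor gene Tlr6 did not pass (7.07 ± 1.75 CPM in knockout and 4.72 ± 0.120 CPM in empty-vector cells, adjusted p = 0.11). Of 4 tested genes of ligand handling and transport, Unc93b1 and Hmgb1 fell. Unc93b1, which carries nucleic-acid sensing Toll-like receptors to endosomes, averaged 17.1 ± 1.82 CPM in knockout and 49.0 ± 2.31 CPM in empty-vector cells (log2 fold change -1.52, edgeR adjusted p = 3.02e-06). Hmgb1 (-0.18) was lost with upper-quartile factors (-0.10) and without empty-vector library 1 (-0.20) or empty-vector library 2 (-0.19).

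Of 18 tested adaptors, kinases and ubiquitin ligases in Scid.adh cells, Peli2 rose (log2 fold change 1.70) and Ube2v1 (-0.74) and Traf3 (-0.40) fell, with a median of 0.0008, where 15.6% of all genes tested rose and 15.9% fell. Peli2 had few reads, with 21 and 16 counts in the knockout libraries and 6 and 7 in the empty-vector ones. The pseudogene Gm6498 overlaps 9.56% of the exon length of Peli2 on the same strand. Peli2 was lost in DESeq2 and without knockout library 1 (1.47), empty-vector library 1 (1.54) or empty-vector library 2 (1.84). Ube2v1 shares 61.5% of its exon length with the gene model Gm20431 on the same strand and was lost in DESeq2 and without knockout library 2 (-0.57) or empty-vector library 2 (-0.66). Of 11 tested brakes, Socs1 and Cyld rose and Tnfaip3 and Tnip1 fell, to be read against the same shares. Socs1, a suppressor of cytokine signalling, rose by 2.90 (2.41 ± 0.891 CPM in knockout and 0.314 ± 0.160 CPM in empty-vector cells), and Cyld, a deubiquitinase, by 0.30. Tnfaip3, the gene of the NF-kB inhibitor A20, fell by 0.79 and its partner gene Tnip1 by 0.51 on the log2 scale. Cyld was lost in DESeq2, without a filter (0.25) and without empty-vector library 1 (0.34) or empty-vector library 2 (0.25), and Tnfaip3 in DESeq2 and without empty-vector library 1 (-0.82) or empty-vector library 2 (-0.78). None of the 6 interleukin-1 family receptors reached the filter; Il1rl1, the most abundant by the mean over the 4 libraries, had 9 counts in knockout and 3 in empty-vector libraries. Of 24 output genes, Tnf and Nfkbiz were tested and both fell. Tnf had 10 counts over the knockout and 50 over the empty-vector libraries (log2 fold change -2.08, lost in DESeq2), and Nfkbiz averaged 13.0 ± 1.22 CPM in knockout and 18.8 ± 0.474 CPM in empty-vector cells (-0.53). Nfkbiz was lost in DESeq2 and without knockout library 1 (-0.45) or empty-vector library 1 (-0.51).

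For each member called in a line, the genes with the closest profile were found by Euclidean distance over the 8 libraries, between log2 CPM values with each gene's mean subtracted, among 15827 other named genes. Such a profile holds the difference between the lines as well as the changes within them. Cd14, Tlr2, Tlr3 and Tlr4 had between 0 and 5 counts over the 4 Scid.adh libraries. Their Scid.adh values thus rest mostly on the prior count of 2 added before taking logs. For these 4 genes a close match in Scid.adh shows only that both genes had few reads there. Gm49392, Has2 and Gm26723 had 0 counts in every Scid.adh library, as Tlr3 did. Closest to Tlr3 were Gm49392 (distance 0.354), Has2 (0.384), a hyaluronan synthase, and Gm26723 (0.521). Closest to Cd14 were Ahr (0.585), the aryl hydrocarbon receptor, Lmod1 (0.626) and Gm28513 (0.630), and closest to Tlr2 were Slc39a14 (0.960), a zinc and iron transporter, Hmgn3 (0.985) and Gm9913 (1.07). Tlr4 was nearest to Inf2 (0.426), Ahnak2 (0.504) and Fkbp10 (0.513), although Ahnak2 fell by 0.24 on the log2 scale in induced 3T3 cells where Tlr4 rose. Myd88 was nearest to Apol10b (0.344), Adhfe1 (0.438) and Tnip1 (0.438), Irak1 to Gnai2 (0.100), Vps52 (0.101) and Ormdl3 (0.121), and Irak4 to Daglb (0.248), Dnajc25 (0.263) and Lasp1 (0.286). Irak1, with the smallest of these distances, also had a similar level in the lines, and the part of this in the distances was not tested.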

How the data were processed

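Gene counts were deposited by the authors, 1 file per library, with no normalization. Per the labels' protocols, total RNA was made into stranded libraries with a low-input kit and read in pairs. Per the submitters' processing notes, reads were aligned to GRCm38 (mm10), and STAR 2.5.0a and HTSeq 0.6.1 were used. The 3T3 files have a layout that is not that of HTSeq. Their counting program, the annotation release and the strand setting were not stated by the labels or headers. The gene tables hold 53465 (3T3) and 31053 (Scid.adh) genes. HTSeq's summary rows, in the Scid.adh files alone, were left out of library sizes. Reads on no counted feature were 21.3% to 25.8% and ambiguous reads 2.20% to 2.44% of all reads in those files. Reads on no counted feature may still lie inside genes, since the strand setting was not stated.

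Symbols, positions and merged exon lengths came from GENCODE M21. Per line, genes were filtered with filterByExpr, scaled by TMM and tested by quasi-likelihood F-tests with robust dispersions in edgeR (edgeR 4.0.16, R 4.3.3), adjusted by Benjamini-Hochberg over all genes tested. Common dispersion gave a biological coefficient of variation of 2.41% for 3T3 libraries and 5.94% for Scid.adh libraries. SE is the log2 fold change over the square root of F, and intervals cover 95%. Without molecular identifiers, floors of 3 counts cover counting error only. Libraries of a group differed by more than sampling noise (chi-square per degree of freedom 1.15 to 6.08).

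The members and lists were chosen with earlier results of these data known. Per list and line, the text names up to 3 called genes per direction with the largest changes among those averaging at least 1 CPM, or the most abundant gene where none passed. Alternatives tried were a test against 1.5-fold, a fit of all 8 libraries, leaving out each library, a replicate block, a filter at a mean of 1 CPM, no filter, DESeq2 1.42.0, and upper-quartile or DESeq2 scaling in edgeR. The gene test was tested on simulated counts. Figures used Python 3.11.15 and matplotlib 3.10.9.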

Additional observations from a re-analysis of the deposited data

Results flagged for a closer look

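The log2 fold change with TCF-1 induction in 3T3 cells was set against that with Tcf7 knockout in Scid.adh cells. By edgeR's test of the difference, 3 of the 4 members read in both lines passed above 0. A gain of TCF-1 is set against a knockout here, so opposite changes in the contrasts add up. The difference therefore does not show that the lines respond differently to TCF-1. Myd88 differed by 1.15 on the log2 scale, Irak4 by 0.61 and Irak1 by 0.50, each higher in the induction contrast. The difference stayed past the threshold for these 3 genes in all 13 alternatives run, between 0.90 and 1.51 for Myd88, between 0.51 and 0.78 for Irak4 and between 0.45 and 0.55 for Irak1. The test against a change of 1.5-fold was not among these 13, so it is not known whether these differences exceed that size. Groups of 2 libraries are too small to look for a library far from the others.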

How the results depend on the processing

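Of the 8 members, 7 rose in 3T3 under each alternative except the test against 1.5-fold, where 3 did, and when 1 library was left out the number lay between 6 and 7. In Scid.adh, 1 member fell, against 2 with the replicate block, 2 in the fit of all 8 libraries, 0 against 1.5-fold and between 0 and 2 with 1 library left out. In that fit of 8 libraries 1 member, Cd14, was called higher in the knockout, on 5 counts over the Scid.adh libraries. Its 3T3 counts took it past the filter there, and under the filter of the Scid.adh libraries it was not tested. No member changed direction under any alternative. Over all genes in 3T3, 3361 rose and 3332 fell, against 1819 and 1869 in DESeq2 and 480 and 437 against 1.5-fold. In Scid.adh 1861 rose and 1899 fell. DESeq2 called 650 and 1348 there, upper-quartile factors 2455 and 1215, which shifted the median log2 fold change by 0.08, and the test against 1.5-fold 565 and 159. With 1 library left out, between 1059 and 1911 rose and between 1162 and 2321 fell. The causes of these differences were not tested; a lone library left in a group is assumed to vary like the others. Same-numbered libraries did not deviate together (correlations of 0.01 in 3T3 and 0.00 in Scid.adh), so the numbers were not shown to pair the libraries; the block moved counts over all genes by less than 1.5 times, called Myd88 lower in Scid.adh (-0.55) and did not call Hmgb1 there (-0.18). The lowest depth, 7740198 counts, limits what can be said of the receptors in Scid.adh.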

Other observations

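Reads of the remaining Toll-like receptor genes were few in the fibroblasts, and none of these genes reached the filter. Over the 2 libraries of a group, Tlr12 had 13 counts in induced and 13 in normal cells, Tlr13 had 8 and 8, Tlr9 had 7 in induced and 10 in normal cells, and Tlr7 had 6 in induced and 16 in normal cells. Tlr5 had 2 counts in induced and 0 in normal cells, Tlr8 had 0 in induced and 3 in normal cells, and Tlr11 had 0 counts in all 4 libraries. In Scid.adh cells Itgam, an integrin subunit of myeloid cells, rose in the knockout (8.59 ± 0.107 CPM in knockout and 4.74 ± 1.27 CPM in empty-vector cells, SD, n = 2; log2 fold change 0.85, edgeR adjusted p = 0.0208). Itgam shares 68.7% of its exon length with the gene model Gm49368 on the same strand, so its value is uncertain. Fcer1g, a signalling chain of Fc receptors, fell in the knockout (-2.33). Fcgr1 had 8 counts in knockout and 0 in empty-vector libraries and was not tested. These genes were picked after their values were seen.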
